A study of Mus musculus with 76 samples.

Results

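The promoters described here are protein-coding gene starts that had no H3K27me3 peak in wild type mouse diencephalon at E11.5 (E for embryonic day) and had a peak at E17.5. They were selected on the deposited wild type H3K27me3 peak lists. A start was chosen by having no peak of any strength within 2 kb in either E11.5 replicate, and by having in each of the 3 E17.5 replicates a peak within 2 kb with a −log10 q-value (column 9 of the list) of 2 or more. Of 21757 starts on the mouse assembly GRCm39 (mm39), 447 met this rule. The wild type H3K27me3 values are therefore given as a description with no test. The humanized H3K27me3 lists, the H3K4me3, H3K27ac and CTCF lists and the RNA counts played no part in the choice.

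H3K27me3 is written by Polycomb repressive complex PRC2, whose catalytic subunit is Ezh1 or Ezh2, and is bound by some forms of PRC1. In the embryonic brain it is known for silent promoters of developmental regulators, many of them CpG-rich, and these often also carry H3K4me3. H3K4me3 marks the starts of active and poised genes, and H3K27ac, which occupies the same lysine as H3K27me3, marks active promoters and enhancers.

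The study compared C57BL/6J mice homozygous for the wild type locus of the enhancer hs754 with mice homozygous for a humanized allele, in which the human sequence replaces the mouse sequence. Diencephalon was taken at E11.5, with 6 embryos of a single litter pooled per replicate, and at E17.5, with 3 embryos of a single litter pooled. H3K4me3, H3K27ac and H3K27me3 were profiled by ChIP-seq with 2 E11.5 and 3 E17.5 replicates of each genotype, CTCF with 3 E17.5 replicates of each, and polyadenylated RNA in 4 replicates per genotype and stage. No sample is a sorted cell type, a replicate is a pool and not an animal, and the study's methods report that the H3K27ac antibody also bound acetylated H2B. The 4 groups are wild type E11.5, wild type E17.5, humanized E11.5 and humanized E17.5, and the stage comparison asks how the gain of H3K27me3 went with other marks and RNA as the tissue developed.

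The RNA libraries held 16414369 to 24272569 reads assigned to genes. The H3K27me3 lists held 19166 and 13850 peaks in the wild type E11.5 replicates, then 43700, 27452 and 33223 at E17.5. The humanized lists held 21295 and 16988 peaks at E11.5, then 29642, 31592 and 19193 at E17.5. More peaks were thus called at E17.5 in wild type tissue than at E11.5, and the read depth behind each list was not given in the peak files.

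Markers of the labelled tissue were present at both stages. The 18 genes of the diencephalon list summed to 2264, 1696, 1849 and 1600 CPM (read counts per 1000000 reads, with library sizes scaled by edgeR's TMM factors) in wild type E11.5 samples and 2114, 1926, 1858 and 1667 CPM at E17.5. Tcf7l2, a transcription factor of the thalamus, was the most abundant of them with means of 1043 and 1205 CPM, and Rax was at 0 in at least 1 sample. The 7 telencephalon markers summed to 51.4 to 70.3 CPM at E11.5 and 72.8 to 123 CPM at E17.5 in wild type tissue, with Emx1, Eomes and Neurod6 among those at 0 in at least 1 sample. The 11 midbrain and hindbrain markers summed to 11.8 to 24.1 and 11.1 to 20.9 CPM, with Pax2, Egr2 and 5 Hox genes at 0 in at least 1 sample. Both sums were thus below that of the diencephalon list, but the lists differ in size and single genes carry much of them. Emx2 alone had a mean of 47.1 CPM in wild type E11.5 samples. The share of neighbouring brain parts in the tissue cannot be read from these sums.

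Wild type RNA replicate 1 of E17.5 stood apart from the other 3 of its group. Red blood cell markers summed to 1021, 301, 458 and 242 CPM in the 4 wild type E17.5 replicates, endothelial markers to 511, 350.4, 292 and 309.6 CPM and microglial markers to 96.1, 43.8, 46.7 and 47 CPM. Astrocyte markers summed to 410.5, 636, 567 and 649 CPM. Replicate 1 thus had the highest sums of the group for the red cell, endothelial and microglial lists and the lowest for the astrocyte list. Single genes did not all follow the sums. Slc1a2 and Gja1 carried the low astrocyte sum, while Aldh1l1 (84.6, 40.3, 30.3 and 30.4 CPM) and Aldoc (83.2, 44, 48.8 and 56.4 CPM) were highest in replicate 1, and microglial P2ry12 (2.09, 4.62, 3.48 and 4.85 CPM) was lowest there. The most abundant gene of each list was Hbb-y (over all samples; at 0 in some, as were Hbb-bh1 and Hba-x), Kdr, Csf1r and Slc1a2, with Gfap, Aqp4, S100b and Agt at 0 in at least 1 sample. Neuron markers went both ways in this replicate. Tubb3 (2632, 841, 874 and 765 CPM) was highest there, and Map2 (1074, 2887, 2224 and 2650 CPM) was lowest. The RNA count over all members is given below with and without this replicate. Counts for subsets and families are given with it only, and the part of these markers in the results was not tested.

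The gained peaks were weaker and narrower than those of promoters marked at both stages. Median fold enrichment over local background at members was 3.7, 3.27 and 3.34 in the 3 wild type E17.5 lists. It was 6.8, 5.63 and 5.84 at the 3263 promoters marked at both stages, which had a peak with column 9 of 2 or more in every wild type list. The lowest of a member's 3 column 9 values had a median of 3.31, was under 3 in 193 members, was 5 or more in 113 and was highest at Nos2 with 51.3, a gene picked after the values were seen. The strongest peak of a member was 2168 bp wide at the median (quartiles 1504 and 3582 bp), against 5485 bp at the promoters marked at both stages. The medians over all peaks of the 3 lists were 2.69, 2.77 and 2.76 fold and 956, 1002 and 1126 bp, but members had to pass a minimum in these lists and their strongest peak was taken, so the rule itself sets them above these medians. The start itself lay inside the peak in all 3 lists in 172 members (38.5%), against 2386 (73.1%) of the promoters marked at both stages, and lay outside it in all 3 lists in 197 members. Near the threshold, the lowest column 9 value was 2.0005 at Fgfr1 and 2.0032 at Gm47985, both members, and 1.9975 at Slc12a8 and 1.9958 at Tcp11l2, which were not.

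Some members lay beside regions that already had H3K27me3 at E11.5. The distance from the start to the nearest wild type E11.5 peak had a median of 38510 bp in members and 89364 bp in the 16035 other starts with no E11.5 peak within the window. An E11.5 peak lay within 5 kb of 84 members (18.8%) and of 3.34% of those other starts, and within 10 kb of 127 members (28.4%) and 8.16%. The strongest E17.5 peak of the member overlapped an E11.5 peak in all 3 lists at 64 members and in 1 or 2 lists at 13. Whether the E11.5 region itself had spread there was not tested. At 370 members (82.8%) the E17.5 peak overlapped no E11.5 peak in any list. This split was made after the values were seen.

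The 447 starts formed 419 separate H3K27me3 loci, 391 with a single member and 28 with 2 members, so 56 members shared a peak with a neighbour and are not independent of it. Anxa5, a calcium-dependent phospholipid-binding annexin, and 1810062G17Rik start 767 bp apart, and Amdhd1 and Ccdc38 start 592 bp apart. Rusf1 and Ahsp, which encodes a chaperone of alpha globin, start 4627 bp apart and share a peak of 3.03, 2.82 and 3.83 fold in the wild type lists. Of genes named below, Nek11 shares its peak with Aste1, Mdh1b with Fastkd2, Gpr108 with Trip10 and Slc4a2 with a gene without a symbol. The marks given for these genes may thus belong to the neighbour's start. Members lay on every chromosome but Y, from 4 of 982 starts (0.407%) on X to 29 of 1057 (2.74%) on chromosome 17.

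The balance of gain and loss differed between settings. By the rule run in reverse, 183 promoters had H3K27me3 in both E11.5 lists and in no E17.5 list. When each list was reduced to its 13850 strongest peaks, 445 promoters gained the mark and 438 lost it. The reduced lists shared 376 members with the full lists, 84.1% of the 447 and 84.5% of the 445. With a column 9 minimum of 5 the counts were 113 gained and 45 lost. In the humanized lists, counting peaks of any strength in all lists of a stage and in none of the other, 408 starts gained and 632 lost H3K27me3. Peak strength and list sizes differed there from the wild type counts as well, so the difference cannot be put down to genotype. The number of members also depended on the libraries, being 708 without wild type E11.5 replicate 1.

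The humanized lists, which the rule did not use, had H3K27me3 at most members at E17.5. They are compared for 443 members, since 4 on chromosome 13 lie downstream of the replaced locus, where coordinates are shifted. At E17.5 a peak was present at 418, 429 and 385 of these members (94.4%, 96.8% and 86.9%) in the 3 humanized replicates, against 24%, 24.9% and 21.3% of all starts. It was present in all 3 at 366 members and in none at 3. At E11.5 a peak was present at 65 and 112 members (14.7% and 25.3%) in the 2 humanized replicates, against 24.5% and 24.6% of all starts. All starts include the promoters marked at both stages, whereas members were chosen for having no wild type E11.5 peak. Of 14409 starts with no H3K27me3 peak in any wild type list, 14068 (97.6%) had none in any humanized list. Members thus had humanized E11.5 peaks more often than those starts. In all, 305 members had no humanized E11.5 peak, 99 had a peak in 1 list and 39 in both. The whole rule was met in humanized lists by 192 members (43.3%), where 1.09% of all 21511 starts met it. Among the 16307 starts with no wild type E11.5 peak, members included, 211 (1.29%) met it, and 19 of these were not members. Taken alone, a column 9 of 2 or more in all 3 humanized E17.5 lists was met by 286 members and absence from both E11.5 lists by 305, so members missed either condition. With 2 against 3 lists the smallest exact one-sided p is 0.1, and no test was made.

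The members with the highest median humanized fold enrichment were mostly beside older regions. Of these 8 genes, Cox6b1, Klhdc7b, Izumo1, Ddt and Gpatch4 had E17.5 peaks that overlapped an E11.5 peak in all 3 wild type lists, and Cyp26b1 in 2 lists. Cox6b1, a subunit of cytochrome c oxidase, had humanized E17.5 fold values of 11.6, 11.4 and 0 and wild type values of 13.9, 11.7 and 11.1, and its start lay 3570 bp from an E11.5 peak. A 0 here means no peak within 2 kb, so 2 of the 3 humanized lists had a peak within 2 kb of the Cox6b1 start. Cyp26b1, which degrades retinoic acid, had 13, 11.2 and 2.7 fold in humanized lists and lay 3365 bp from an E11.5 peak. Fold values belong to the whole peak and not to the stretch within the window, which matters most for these wide regions of up to 28155 bp at Gpatch4.

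Ier2 and Inppl1 were the genes among these 8 whose E17.5 peak overlapped no E11.5 peak. At Ier2, an immediate early gene, H3K27me3 was 10.5, 8.5 and 7.56 fold in wild type and 9.32, 6.95 and 7.89 fold in humanized lists, with no peak in either humanized E11.5 list. At Inppl1, which encodes the inositol phosphatase SHIP2, the values were 7.8, 6.38 and 7.05 and 7.44, 7.67 and 7.4 fold, again with none at E11.5. The wild type peaks and absences follow from the rule, and both genes were picked for their humanized E17.5 fold. Only the absence from the humanized E11.5 lists was thus free of the choice.

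Ier2 RNA was at 11.3, 17.1, 9.51 and 15.2 CPM in the 4 wild type E11.5 samples and 5.8, 2.39, 3.63 and 2.07 CPM in those of E17.5. Its log2 fold change by stage was −1.95 ± 0.34 (SE; edgeR quasi-likelihood, adjusted p = 0.000641) in wild type and −3.09 ± 0.21 (edgeR quasi-likelihood, adjusted p = 7.27e-08) in humanized tissue. Every E17.5 sample of both genotypes was below every E11.5 sample. H3K27ac at Ier2 was 8.68 and 11.3 fold at E11.5 and 22.6, 23.2 and 26.8 fold at E17.5. The humanized values were 15.6 and 16.1, then 22.4, 20.8 and 9.68 fold, so there the stages overlapped. Inppl1 RNA was at 99, 139, 92.6 and 111 CPM in the 4 wild type E11.5 samples and 33.8, 17.9, 15 and 14.5 CPM in those of E17.5, with log2 fold changes of −2.45 ± 0.30 (SE; edgeR quasi-likelihood, adjusted p = 5.32e-05) and −3.20 ± 0.19 (adjusted p = 1.88e-08) in the 2 genotypes. Again no E17.5 sample reached an E11.5 sample. In bulk tissue, fewer cells of a type and less RNA per cell cannot be told apart for these or any other members.

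Of the other 6, Cyp26b1 rose and 2 could not be tested. Cyp26b1 RNA was at 1.03, 2.17, 1.06 and 1.78 CPM in the 4 wild type E11.5 samples and 11.1, 5.22, 4.73 and 3.41 CPM in those of E17.5, a log2 fold change of 2.00 ± 0.41 (SE; edgeR quasi-likelihood, adjusted p = 0.00182) in wild type and 1.79 ± 0.23 (adjusted p = 1.78e-05) in humanized tissue. Its E17.5 samples were all above its E11.5 samples, with replicate 1 the highest in wild type. Cox6b1 was at 180.3, 199, 149 and 169 CPM in the 4 wild type E11.5 samples and 325, 142, 226 and 201 CPM in those of E17.5, and its stage difference was not called in wild type, 0.35 ± 0.24 (SE; edgeR quasi-likelihood, adjusted p = 0.235), or in humanized tissue, −0.21 ± 0.13 (adjusted p = 0.165). The 2 stages of Cox6b1 overlapped, and without humanized E17.5 replicate 3 it was called lower in humanized tissue, at −0.32. Gpatch4, a nucleolar G-patch protein, was also not called, with 0.03 ± 0.16 (SE; edgeR quasi-likelihood, adjusted p = 0.876) in wild type and 0.23 ± 0.12 (adjusted p = 0.112) in humanized tissue. Ddt, D-dopachrome tautomerase, was not called in wild type at −0.56 ± 0.32 (SE; edgeR quasi-likelihood, adjusted p = 0.167) and was lower in humanized tissue at −0.86 ± 0.28 (adjusted p = 0.0145). Klhdc7b, a kelch domain protein, and Izumo1, the sperm protein that binds the egg, were at no more than 0.0995 and 0.562 CPM in any sample and were not tested.

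RNA of the members fell more often than it rose. In wild type tissue 445 of the 447 members had a row in the count table and 335 passed the filter on low counts. At E17.5, 158 members were lower (47.2% of those tested, against 26.7% of all 18583 genes tested) and 58 were higher (17.3% against 29%), by edgeR quasi-likelihood with Benjamini-Hochberg adjusted p under 0.05. A further 119 were not called and 112 were not tested, most with very little RNA. The median log2 fold change of tested members was −0.62, against −0.01 over all genes tested and 0.06 over the 14340 protein-coding genes tested. Without wild type E17.5 replicate 1, 188 members were lower (55.6% against 36.3% of all genes) and 69 higher (20.4% against 36%).

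Humanized tissue gave a like split. There 187 members were lower at E17.5 (56% of 334 tested, against 39.5% of all 18781 genes) and 74 higher (22.2% against 38.2%), with a median of −0.71 against −0.04. Of the 447 members, 149 were lower in both genotypes, 54 were higher in both, and none was called in opposite directions. The same counts over all genes were not computed, so this agreement is not read as particular to members. The stage-by-genotype interaction was called for 0 members (background 0%) by edgeR and for 0 by DESeq2, with 36 of 347 members (10.4%) at an unadjusted p under 0.05 in edgeR, where all genes gave 7.96%. These counts pass over 113 members that were not tested in humanized tissue.

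The 4 classes of promoter differed in the direction of RNA. Tested genes whose promoters had H3K27me3 at both stages were higher at E17.5 in 47.6% and lower in 24.3% (median 0.64) in wild type tissue. Those that lost the mark were higher in 64.4% and lower in 11.9% (median 1.24). Those with no H3K27me3 peak in any wild type list were higher in 23.8% and lower in 27.1% (median −0.08). Members were thus the class with the largest share lower, and these shares are counts with no test between classes. A further 3300 starts fell in no class.

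Subsets of members are counted here with no test between them, and column 9 is a value the rule used. Over all genes tested in wild type tissue 26.7% were lower and 29% higher. Of the 94 tested members with column 9 of 5 or more in every wild type E17.5 list, 59 (62.8%) were lower, 6 (6.38%) were higher and the median was −1.16. Of the 154 tested members that met the rule in humanized lists too, 89 (57.8%) were lower and 23 (14.9%) higher in wild type tissue. Members whose E17.5 peak was apart from every E11.5 peak were lower in 145 of 286 tested (50.7%), and members whose peak overlapped an E11.5 peak in 13 of 49 (26.5%). Of the 179 genes that met the rule at every annotated transcript start, 109 were tested, 58 of them lower (53.2%) and 18 higher. Per kb of exon, the median level of all matched members was 1.67 CPM at E11.5 and 1.03 CPM at E17.5, against 0.919 and 1.3 CPM over all protein-coding starts.

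H3K4me3 was present and steady at most members. In wild type lists 310 members (69.4%) had an H3K4me3 peak within 2 kb in all 5 replicates, against 60.9% of all starts, and 115 (25.7%, against 36%) in none. Between stages 2 members lost H3K4me3, that is had it in both E11.5 lists and in no E17.5 list (0.447%, background 0.4%), and 6 gained it (1.34%, background 0.777%). Without wild type E11.5 replicate 2 the count lost was 4. In humanized lists 6 lost it (1.35%, background 0.6%) and 4 gained it (0.903%, background 0.735%). Where a peak was present, the median H3K4me3 fold at members was 42 and 42.4 at E11.5, then 42.8, 44.1 and 40.6 at E17.5, while over all starts it was 45 and 45.9, then 51.6, 54.7 and 50.5. Of the lost pair, Ahsp is one: its H3K4me3 was 3.74 and 4.74 fold at E11.5 with no peak at E17.5, and it has no row in the count table.

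H3K27ac was present at both stages about as often at members as at all starts. In wild type lists 203 members (45.4%, against 45% of all starts) had an H3K27ac peak in every replicate of both stages and 147 (32.9% against 39.3%) in none. H3K27ac was lost at 7 members (1.57%, background 0.62%), gained at 33 (7.38%, background 7.86%), and varied between replicates at 57. Without wild type E17.5 replicate 3 the count lost was 12. In humanized lists 16 lost H3K27ac (3.61%, background 0.767%) and 15 gained it (3.39%, background 5.26%), with 47132 peaks in humanized E17.5 replicate 3 against 62720 to 77419 in the wild type replicates. The counts of lost H3K27ac rest on few genes, and the gained share in wild type lists was close to the background.

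Acetylation at members differed less between stages than at starts in general. Where a peak was present, median H3K27ac fold at members was 8.83 in both wild type E11.5 lists and 10.3, 10.8 and 11.3 at E17.5. Over all starts it was 10.1 and 10 at E11.5, then 19, 18.6 and 21.2 at E17.5. All 3 wild type E17.5 lists of both H3K4me3 and H3K27ac had a peak at 254 members (56.8%, against 54.3% of all starts), each of which also had H3K27me3 there. Peaks of 3 marks within the same 2 kb window in pooled tissue do not show that a single chromosome carried them, and different cells or different stretches of the window cannot be told apart. Neither H3K4me3 nor H3K27ac was found in any wild type list at 105 members (23.5%, against 33.4% of all starts). CTCF was present in all 3 wild type E17.5 lists at 181 members (40.5% against 37.9%).

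RNA is counted here by acetylation class, with no test between classes. Of the 203 members with H3K27ac at both stages, 199 were tested, 108 lower (54.3%) and 25 higher (12.6%) at E17.5, whereas over all protein-coding starts of that class 29% were lower and 24.1% higher. All 7 members that lost H3K27ac were lower, with a median of −4.11. Of the 33 that gained H3K27ac 30 were tested, 9 higher (30%), 11 lower (36.7%) and 10 not called, with a median of 0.01. Over all genes tested 26.7% were lower and 29% higher, and the shares over all starts of these 2 classes were not computed. Of the 147 with no H3K27ac, 98 were not tested, and of the other 49 members 15 were lower (30.6%) and 10 higher (20.4%), against 23.2% and 38.9% of all tested protein-coding starts of that class. Among these members the median wild type level was 0.0982 CPM at E11.5 and 0.241 CPM at E17.5, so most of these promoters belonged to genes with almost no RNA at either stage.

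Members were less CpG-rich than other Polycomb promoters. Within 500 bp of the start on either side, 136 members (30.4%) reached 50% G and C with a CpG ratio (observed over expected) of 0.6 or more, against 40.5% of all starts, 51.2% of promoters marked at both stages and 61.2% of those that lost the mark. Among starts with H3K4me3 at both stages, 43.9% of members and 65.1% of all such starts were CpG-rich. All 136 CpG-rich members had H3K4me3 at both stages, as had 8619 of all 8802 CpG-rich starts. RNA of the CpG-rich members was lower at E17.5 in 78 (57.4%) and higher in 15 (11%), while of the 199 tested members that were not CpG-rich 80 (40.2%) were lower and 43 (21.6%) higher. Over all genes tested the shares were 26.7% and 29%, and those of all CpG-rich starts were not computed.

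Mybl2 was among the largest falls in RNA. Mybl2, the cell cycle transcription factor B-Myb, was at 52.7, 71.8, 48.6 and 58.1 CPM in the 4 wild type E11.5 samples and 4.5, 1.41, 1.89 and 1.94 CPM in those of E17.5. Its log2 fold change was −4.58 ± 0.36 (SE; edgeR quasi-likelihood, adjusted p = 3.05e-06) in wild type and −4.93 ± 0.17 (adjusted p = 6.06e-10) in humanized tissue. Stages did not overlap in either genotype, and at E17.5 replicate 1 was the highest wild type sample. Within 2 kb of its start, H3K27me3 was 6.14, 3.76 and 5.88 fold at E17.5 (column 9 of 15.7, 7.42 and 13.4) and 4.32, 4.79 and 4.65 fold in humanized lists, with no peak at E11.5 in either genotype. H3K27ac was 8.1 and 6.79 fold at E11.5 with no peak in any E17.5 list. H3K4me3 was 30 and 55.1 fold at E11.5 and 40.3, 24.5 and 32.6 fold at E17.5. Mybl2 thus lost acetylation, kept H3K4me3 and gained H3K27me3.

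Pif1, a DNA helicase, had the same pattern of marks. H3K27me3 was 7.71, 5.29 and 5.78 fold in wild type E17.5 lists, H3K27ac went from 7.85 and 6.29 fold to no peak, and H3K4me3 from 49.6 and 55.8 to 27.5, 27.7 and 24 fold. Its RNA was at 24.4, 30.2, 26.3 and 33.3 CPM in the 4 wild type E11.5 samples and 1.36, 1.69, 1.54 and 1.31 CPM in those of E17.5, a log2 fold change of −4.28 ± 0.21 (SE; edgeR quasi-likelihood, adjusted p = 3.18e-07) in wild type and −4.17 ± 0.17 (adjusted p = 1.45e-09) in humanized tissue. No E17.5 sample came near an E11.5 sample. Pclaf, which binds the replication clamp PCNA, was at 218, 214, 258 and 262 CPM in the 4 wild type E11.5 samples and 6.43, 9.24, 14 and 12.1 CPM in those of E17.5, with log2 fold changes of −4.52 ± 0.27 (SE; edgeR quasi-likelihood, adjusted p = 6.9e-07) and −4.24 ± 0.16 (adjusted p = 8.82e-10). Its H3K27me3 peak was among the narrower ones at 775 bp and was found in only 1 of the 3 humanized E17.5 lists, at 2.74 fold. Neil3, a DNA glycosylase, lost H3K27ac as well (6.79 and 5.64 fold at E11.5) and its RNA changed by −2.72 ± 0.21 (SE; edgeR quasi-likelihood, adjusted p = 3.09e-06) on the log2 scale.

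Uhrf1, which reads hemimethylated DNA and recruits the maintenance methyltransferase, kept acetylation at a lower fold. Its RNA was at 330.1, 424, 314 and 351 CPM in the 4 wild type E11.5 samples and 27.7, 12.3, 14.9 and 13.9 CPM in those of E17.5, with log2 fold changes of −4.37 ± 0.29 (SE; edgeR quasi-likelihood, adjusted p = 1.19e-06) in wild type and −5.07 ± 0.16 (adjusted p = 4.24e-10) in humanized tissue. The E17.5 samples were all far below E11.5, with replicate 1 the highest of the wild type group. H3K27ac was 16 and 13.7 fold at E11.5 and 5.13, 3.85 and 7.23 fold at E17.5, H3K4me3 50.4 and 40.1 and then 49.1, 57.6 and 51.8 fold, and H3K27me3 5.03, 5.09 and 3.94 fold at E17.5. Hmgb2, a chromatin protein abundant in dividing cells, was at 672, 653, 668 and 652 CPM in the 4 wild type E11.5 samples and 20.3, 34.8, 43.7 and 38.1 CPM in those of E17.5, with log2 fold changes of −4.28 ± 0.25 (SE; edgeR quasi-likelihood, adjusted p = 6.52e-07) and −4.05 ± 0.16 (adjusted p = 1.03e-09). At Hmgb2, H3K27ac was 49.1 and 45.3, then 40.1, 43.7 and 36.1 fold in wild type lists and 63.9 and 61.2, then 44.7, 21.5 and 24.4 fold in humanized lists, with wild type E17.5 H3K27me3 at 3.33, 3.48 and 4.5 fold.

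Ticrr, also called treslin and needed to start replication, was at 62.3, 61.9, 77.3 and 67.6 CPM in the 4 wild type E11.5 samples and 3.55, 3.91, 4.48 and 3.2 CPM in those of E17.5. Its log2 fold change was −4.16 ± 0.20 (SE; edgeR quasi-likelihood, adjusted p = 3.12e-07) in wild type and −4 ± 0.15 (adjusted p = 1.06e-09) in humanized tissue. Stages were again fully apart. H3K27me3 at Ticrr was 6.11, 5.85 and 4.89 fold in wild type E17.5 lists, and 1 of the 2 humanized E11.5 lists already had a peak of 2.52 fold. Mki67, the proliferation antigen Ki-67, was at 186, 170.2, 261 and 205 CPM in the 4 wild type E11.5 samples and 24.5, 48.8, 38.4 and 47 CPM in those of E17.5, with log2 fold changes of −2.39 ± 0.26 (SE; edgeR quasi-likelihood, adjusted p = 2.39e-05) and −1.93 ± 0.28 (adjusted p = 4.27e-05). Here replicate 1 was the lowest E17.5 sample. H3K27ac at Mki67 went from 28.4 and 32.9 to 6.69, 5.51 and 4.2 fold and H3K27me3 reached 6.74, 5.8 and 5.32 fold.

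The fall of dividing-cell RNA was not confined to members. All 20 genes of the dividing-cell marker list were lower at E17.5 in both genotypes, yet Mki67 was the only member among them and 17 had no H3K27me3 peak in any wild type list. Their summed level was 3743, 4033, 4146 and 3871 CPM in wild type E11.5 samples and 372, 367, 376 and 355 CPM at E17.5, with Top2a the most abundant at means of 597 and 53.7 CPM. Of 20 neural progenitor markers 17 were lower and 2 higher, and their sum was 6193 to 6621 CPM at E11.5 and 1525 to 1722 CPM at E17.5, with Vim the most abundant. None of the progenitor list was a member, 14 having H3K27me3 at both stages. None of these 40 markers was at 0 in any sample. Their part in the members' result was not tested.

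Markers of other cell types differed between stages as well. Of 16 neuron markers 14 were higher, with sums of 2624 to 3851 CPM at E11.5 and 10356 to 11812 CPM at E17.5 (most abundant Map2). Of 9 oligodendrocyte lineage markers 8 were higher (126 to 172 CPM at E11.5, 278 to 361 CPM at E17.5, most abundant Pdgfra, Sox10 at 0 in a sample) and of 8 astrocyte markers 6. Of 12 pericyte and meningeal markers 8 were lower and 3 higher (1527 to 2058 at E11.5, 642 to 882 CPM at E17.5, most abundant Col3a1). Endothelial markers gave 2 higher and 1 lower of 10, microglial 1 and 1 of 9 measured, red blood cell 1 and 4 of 9, choroid plexus 3 and 1 of 8 (most abundant Otx2, Ttr at 0 in a sample), and surface ectoderm 0 and 6 of 9 (most abundant Cdh1, Krt5 and Krt14 at 0 in a sample). Otx2 led the choroid plexus list over all samples but not at E17.5. Its wild type mean was 299.9 CPM at E11.5 and 35.6 CPM at E17.5, while that of Ttr was 0.395 and 225 CPM. The diencephalon list itself gave 4 higher and 7 lower, the telencephalon list 4 and 2, and the midbrain and hindbrain list 0 and 0. The part of these markers in the H3K27me3 and RNA of members was not tested.

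The largest fall among members in wild type tissue was that of Igf2bp1, an RNA-binding protein that stabilizes growth-related mRNAs in the embryo. Its RNA was at 509, 706, 572 and 699 CPM in the 4 wild type E11.5 samples and 20.6, 16.7, 14 and 11.6 CPM in those of E17.5. The log2 fold change was −5.32 ± 0.25 (SE; edgeR quasi-likelihood, adjusted p = 3.12e-07) in wild type and −5.42 ± 0.19 (adjusted p = 5.79e-10) in humanized tissue. The lowest E11.5 sample was far above the highest E17.5 sample. H3K27me3 covered 9187 bp at 5.82, 4.47 and 4.88 fold, and H3K27ac went from 23.2 and 24.8 to 8.79, 11.7 and 11.4 fold. H3K4me3 was 54.6 and 78 fold at E11.5 and 55.4, 52.2 and 39.8 fold at E17.5. In humanized lists H3K4me3 went from 70.7 and 53.4 to 41.4, 44.4 and 22.6 fold. Igf2bp2, of the same family, was at 206, 229.6, 239 and 260.2 CPM in the 4 wild type E11.5 samples and 24.3, 24.6, 21.4 and 22.7 CPM in those of E17.5, with log2 fold changes of −3.34 ± 0.17 (SE; edgeR quasi-likelihood, adjusted p = 3.81e-07) and −3.14 ± 0.14 (adjusted p = 2.23e-09). Its H3K27me3 was weaker, at 3.66, 3.31 and 3.58 fold. Igf2bp3, the remaining gene of the family, was a member as well, which was seen after the values.

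Further falls were Fignl2, Xkr5, Ccdc182 and Greb1. Fignl2, a fidgetin-like ATPase, was at 34.4, 62, 47.6 and 66.7 CPM in the 4 wild type E11.5 samples and 3.24, 1.85, 2.64 and 1.39 CPM in those of E17.5 and had log2 fold changes of −4.55 ± 0.33 (SE; edgeR quasi-likelihood, adjusted p = 1.92e-06) and −5.93 ± 0.31 (adjusted p = 8.59e-09). Its H3K27me3 was 7.11, 6.15 and 6.55 fold, and H3K27ac went from 35.9 and 26.3 to 10.7, 7.56 and 10.3 fold. Greb1, a hormone-responsive gene, changed by −3.70 ± 0.24 (SE; edgeR quasi-likelihood, adjusted p = 1.09e-06) on the log2 scale and lost H3K27ac, from 21.5 and 25.7 fold to no peak, although 1 humanized E11.5 list had H3K27me3 there. Xkr5, of the XK-related membrane proteins, went from a mean of 7.36 ± 1.93 CPM (SD, n = 4) to 0.385 ± 0.237 CPM, and the coiled-coil gene Ccdc182 from 3.3 ± 0.604 to 0.194 ± 0.181 CPM. Ccdc182 had H3K27me3 in both humanized E11.5 lists, at 3.04 and 2.83 fold, and so had Pkhd1l1, the remaining gene that lost H3K27ac, at 2.96 and 2.97 fold. For both genes the absence at E11.5 was thus seen in the wild type lists alone.

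Neurod6, a transcription factor of the bHLH family known from neurons of the telencephalon, was the member with the largest rise in wild type tissue. Its RNA was at 0.205, 0, 0.0506 and 0 CPM in the 4 wild type E11.5 samples and 13, 11.4, 13.5 and 12.9 CPM in those of E17.5. The log2 fold change was 7.56 ± 0.53 (SE; edgeR quasi-likelihood, adjusted p = 1.51e-06) in wild type and 7.06 ± 0.31 (adjusted p = 2.36e-09) in humanized tissue. With E11.5 samples at or near 0 the size of this change depends on the prior count of the fit. H3K4me3 and H3K27ac were absent from both E11.5 lists of each genotype and present in every E17.5 list, at 4.79, 5.21 and 5.04 and 6.29, 4.62 and 5.83 fold in wild type. H3K27me3 was 4.22, 4.55 and 4.09 fold in the same lists, over a region of 7290 bp that overlapped an E11.5 peak 3530 bp from the start. Neurod6 thus gained peaks of all 3 marks while its RNA rose.

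Psg16, of the pregnancy-specific glycoproteins, also rose from near 0. Its RNA was at 0.256, 0, 0.0506 and 0 CPM in the 4 wild type E11.5 samples and 5.8, 9.35, 11.7 and 9.91 CPM in those of E17.5, with log2 fold changes of 6.85 ± 0.62 (SE; edgeR quasi-likelihood, adjusted p = 7.28e-06) and 7.64 ± 0.37 (adjusted p = 5.01e-09). H3K4me3 was gained at 5.75, 14.1 and 9.39 fold, beside H3K27me3 of 3.7, 2.8 and 3.14 fold. Reads of this multigene family can be split between near-identical copies, so its level is uncertain. Pde1a, a calmodulin-dependent phosphodiesterase, was at 0.205, 0.265, 0.455 and 0.446 CPM in the 4 wild type E11.5 samples and 7.11, 19.4, 14.8 and 20.8 CPM in those of E17.5, with log2 fold changes of 5.45 ± 0.43 (SE; edgeR quasi-likelihood, adjusted p = 3.12e-06) and 5.75 ± 0.35 (adjusted p = 2.73e-08). Within 2 kb of the Pde1a start, H3K27ac was 3.61 and 0 fold at E11.5 and 13.5, 12.7 and 13.7 fold at E17.5. H3K27me3 was 2.89, 2.98 and 3.15 fold in wild type E17.5 lists. Its column 9 values in humanized E17.5 lists were 2.25, 2.71 and 1.62, so Pde1a did not meet the rule there.

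The other 5 of the 8 largest rises were low-level genes. Cimip5, a protein of ciliary microtubules, was at 0.461, 0.318, 0.202 and 0.527 CPM in the 4 wild type E11.5 samples and 10.3, 4.95, 4.48 and 7 CPM in those of E17.5, with log2 fold changes of 4.10 ± 0.39 (SE; edgeR quasi-likelihood, adjusted p = 1.11e-05) and 2.75 ± 0.24 (adjusted p = 6.45e-07). Every E17.5 sample exceeded every E11.5 sample. Nek5 and Nek11, kinases related to NIMA, changed by 3.95 ± 0.47 (adjusted p = 4.68e-05) and 3.37 ± 0.37 (adjusted p = 2.55e-05) on the log2 scale in wild type tissue, Mdh1b, a malate dehydrogenase-like gene, by 3.61 ± 0.50 (adjusted p = 0.000148) and Cmya5, known from muscle, by 4.04 ± 0.68 (adjusted p = 0.000537), all by edgeR quasi-likelihood. Their E17.5 means were 1.96 ± 0.447, 3.12 ± 0.199, 1.57 ± 0.462 and 1.32 ± 0.673 CPM (SD, n = 4). H3K27me3 within 2 kb of these 5 starts lay between 2.73 and 4.3 fold in wild type E17.5 lists. In humanized lists Nek5 met the rule, and Cimip5, Mdh1b and Nek11 did not. Mdh1b and Nek11 each lacked a peak in a humanized E17.5 list, and Cimip5 had column 9 values of 1.71, 2.21 and 1.69 there. Cmya5 lies on chromosome 13 downstream of the replaced locus and was left out of that comparison. H3K4me3 was present in all lists at each of the 5.

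Of the members that gained H3K27ac, 4 others are named for their rise. Kcnk13, a potassium channel, was at 0.615, 0.265, 0.556 and 0.284 CPM in the 4 wild type E11.5 samples and 4.02, 2.07, 3.38 and 2.44 CPM in those of E17.5, with a log2 fold change of 2.77 ± 0.38 (SE; edgeR quasi-likelihood, adjusted p = 0.000124) in wild type tissue. Its H3K27me3, at 8.41, 6.6 and 7.11 fold over 11988 bp, overlapped an E11.5 peak 3251 bp away, and 1 humanized E11.5 list had a peak in the window. Klhdc7a, a kelch domain gene, changed by 2.88 ± 0.53 (adjusted p = 0.000939), Pdk4, which inhibits pyruvate dehydrogenase, by 2.37 ± 0.33 (adjusted p = 0.00014) and Ngef, a guanine nucleotide exchange factor, by 1.86 ± 0.29 (adjusted p = 0.000329) on the log2 scale, all by edgeR quasi-likelihood. Ngef was at 5.23, 6.47, 4.2 and 4.99 CPM in the 4 wild type E11.5 samples and 31.6, 14.4, 15.6 and 14.7 CPM in those of E17.5, with replicate 1 far above the others of E17.5. Pdk4 had H3K27me3 in both humanized E11.5 lists, at 2.66 and 2.94 fold. Klhdc7a lacked an H3K27me3 peak in a humanized E17.5 list.

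Families were defined by gene symbol. Of 202 homeobox starts 4 (1.98%) were members, close to the share over all starts (447 of 21757), while 178 (88.1%) had H3K27me3 at both stages. No SOX, T-box or GATA factor was a member, but these families are small, with 12 of 20, 11 of 16 and 5 of 6 starts marked at both stages. Of the 447 members 360 belonged to none of the families searched. The families with 5 or more members were transporters and pumps (18 of 541 starts), zinc finger factors (12 of 557), G protein-coupled receptors of the adhesion, orphan and chemosensory kinds (11 of 1723), extracellular matrix (9 of 180), secreted signals (9 of 299), signal receptors (6 of 116) and adhesion (6 of 254). Of the 11 receptors 9 were olfactory or vomeronasal, and the symbol pattern for secreted signals also took in the 3 RNA-binding Igf2bp genes. The share of members ran from 0.638% of these G protein-coupled receptors to 5.17% of the signal receptors, and no family was tested.

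Among receptors and their regulators, 4 of the 6 members, all tested, were lower and 1 higher in wild type tissue, against 26.7% and 29% of all genes. Smo, the transducer of Hedgehog signals, was at 155, 211, 145 and 167 CPM in the 4 wild type E11.5 samples and 40.7, 21.5, 22.3 and 20.4 CPM in those of E17.5, with log2 fold changes of −2.70 ± 0.26 (SE; edgeR quasi-likelihood, adjusted p = 1.17e-05) and −3.29 ± 0.16 (adjusted p = 5.01e-09). Replicate 1 was the highest E17.5 sample and still below every E11.5 sample. H3K27me3 at Smo was 4.51, 4.02 and 4.17 fold and H3K27ac 28.1 and 26.6, then 17.4, 14.1 and 22.9 fold. Ednrb, an endothelin receptor, was at 94.8, 71.6, 129 and 105 CPM in the 4 wild type E11.5 samples and 122, 188, 154 and 173 CPM in those of E17.5 and rose by 0.66 ± 0.22 (SE; edgeR quasi-likelihood, adjusted p = 0.0279) in wild type and 1.08 ± 0.20 (adjusted p = 0.000393) in humanized tissue. The wild type stages overlapped, and the call was lost without E11.5 replicate 1, 2 or 4 or E17.5 replicate 2 or 4, where the change was 0.6, 0.54, 0.65, 0.61 and 0.62. Fgfr1, a receptor of fibroblast growth factors, changed by −0.70 ± 0.25 (SE; edgeR quasi-likelihood, adjusted p = 0.0371) in wild type and −1.32 ± 0.13 (adjusted p = 1.77e-06) in humanized tissue. Its wild type call was lost without E11.5 replicate 1, 2 or 4 (−0.75, −0.6 and −0.73) or E17.5 replicate 2, 3 or 4 (−0.61, −0.58 and −0.59), E17.5 replicate 1 standing at 96 CPM beside 46.7 to 51.2.

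Of 8 tested matrix members 4 were lower and 1 higher in wild type tissue, and of 4 tested adhesion members 2 and 0, against 26.7% and 29% of all genes. Col5a2, a fibrillar collagen chain, was at 192, 197, 186 and 179 CPM in the 4 wild type E11.5 samples and 64.1, 58.9, 52.2 and 45.4 CPM in those of E17.5, with log2 fold changes of −1.78 ± 0.17 (SE; edgeR quasi-likelihood, adjusted p = 9.18e-06) and −1.93 ± 0.13 (adjusted p = 4.74e-08). Lama1, a laminin chain of basement membranes, was at 121, 141, 121 and 135 CPM in the 4 wild type E11.5 samples and 36.7, 30.6, 28.4 and 28 CPM in those of E17.5, with −2.08 ± 0.17 (SE; edgeR quasi-likelihood, adjusted p = 3.65e-06) and −2.39 ± 0.11 (adjusted p = 4.73e-09). Both had weak H3K27me3, from 2.9 to 3.15 fold, and less H3K27ac at E17.5 than at E11.5. Lama4, a laminin chain of vessels, was at 39.5, 41, 37.9 and 35.4 CPM in the 4 wild type E11.5 samples and 76.2, 56.5, 43.5 and 42 CPM in those of E17.5. It was not called in wild type, 0.49 ± 0.21 (SE; edgeR quasi-likelihood, adjusted p = 0.0693), and was called higher in humanized tissue, 0.37 ± 0.14 (adjusted p = 0.0275). That call was lost without humanized E11.5 replicate 1 or 3 or E17.5 replicate 1 or 2 (0.32, 0.29, 0.3 and 0.31), and wild type was called without E17.5 replicate 3 or 4 (0.6 and 0.61). Lama4 had gained H3K27ac (7.92, 6.55 and 8.93 fold) and had H3K27me3 in both humanized E11.5 lists. Fstl1, a secreted glycoprotein that the family search put with the signals, changed by −1.64 ± 0.17 (SE; edgeR quasi-likelihood, adjusted p = 1.97e-05).

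In the adhesion family, Cldn12, a claudin, was at 60.5, 70.4, 67 and 71.6 CPM in the 4 wild type E11.5 samples and 26.5, 36.8, 29.4 and 29.2 CPM in those of E17.5, with log2 fold changes of −1.16 ± 0.17 (SE; edgeR quasi-likelihood, adjusted p = 0.000209) and −1.26 ± 0.13 (adjusted p = 2.78e-06). H3K27ac at Cldn12 was 8.47 and 11.7 fold at E11.5 and 23.7, 27.3 and 26.3 fold at E17.5, a difference in the same direction as the median of all starts. Vcam1, a vascular adhesion molecule, and Itgav, integrin alpha V, were not called in wild type, with −0.21 ± 0.16 (SE; edgeR quasi-likelihood, adjusted p = 0.295) and −0.23 ± 0.29 (adjusted p = 0.531). Itgav nonetheless had one of the stronger gains, at 7.41, 5.35 and 6.79 fold in wild type and 6.01, 6.71 and 5.86 fold in humanized lists with no peak at E11.5. Itgav RNA was called higher in humanized tissue without E11.5 replicate 4, at 0.47.

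Among zinc finger factors 5 of 11 tested members were lower and 3 higher in wild type tissue, where 26.7% and 29% of all genes were. Zeb2, a repressor needed in neural crest and interneurons, had a region of 15552 bp at 7.34, 5.65 and 6.58 fold and no H3K27me3 at E11.5 in either genotype. Its RNA was at 100.3, 69.7, 152 and 110.1 CPM in the 4 wild type E11.5 samples and 35.9, 81.6, 58.2 and 60.1 CPM in those of E17.5, with log2 fold changes of −0.89 ± 0.30 (SE; edgeR quasi-likelihood, adjusted p = 0.0249) and, not called, −0.24 ± 0.21 (adjusted p = 0.313) in the 2 genotypes. The wild type stages overlapped and the wild type call was lost without E11.5 replicate 3 or E17.5 replicate 3 or 4 (−0.69, −0.87 and −0.9). Zfp521, a progenitor-associated factor, changed by −0.50 ± 0.17 (SE; edgeR quasi-likelihood, adjusted p = 0.0286) in wild type and was not called in humanized tissue, −0.25 ± 0.12 (adjusted p = 0.0669). Its wild type call was lost without replicate 3 or 4 of either stage (−0.47 and −0.49 for E11.5, −0.51 and −0.48 for E17.5), and it was called in humanized tissue without E11.5 replicate 1 or 3 (−0.32 each). Zbtb12 had no H3K4me3 or H3K27ac within 2 kb of its recorded start although its mean RNA was 70.1 ± 8.02 CPM (SD, n = 4) at E11.5, so the recorded start may not be the one in use. Its RNA was not called in wild type, −0.27 ± 0.24 (SE; edgeR quasi-likelihood, adjusted p = 0.358), but was without E17.5 replicate 1 (−0.58), and was lower in humanized tissue, −0.64 ± 0.12 (adjusted p = 0.000297).

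Among transporters 6 of 13 tested members were lower and 2 higher in wild type tissue, beside 26.7% and 29% of all genes, and 5 were not tested. Slc36a1, a proton-coupled amino acid carrier, was at 21.8, 22.6, 18.7 and 21.7 CPM in the 4 wild type E11.5 samples and 60.9, 37.8, 35.9 and 39 CPM in those of E17.5, with log2 fold changes of 1.02 ± 0.21 (SE; edgeR quasi-likelihood, adjusted p = 0.00169) and 0.58 ± 0.14 (adjusted p = 0.00216). In wild type lists it gained H3K27ac, at 10.5, 8.3 and 13.3 fold, beside H3K27me3 at 3.64, 3.59 and 3.83 fold. Both humanized E11.5 lists already had H3K27ac there, at 5.19 and 4.33 fold. Slc4a2, an anion exchanger, changed by −0.92 ± 0.27 (SE; edgeR quasi-likelihood, adjusted p = 0.0135) and −1.73 ± 0.17 (adjusted p = 1.42e-06), and Atp5me, a subunit of ATP synthase, was not called in wild type at −0.11 ± 0.21 (adjusted p = 0.689) and was lower in humanized tissue at −0.54 ± 0.14 (adjusted p = 0.00349). Of the receptor family of 11, 9 were not tested, among them the olfactory receptor Or4d1, which was at no more than 0.398 CPM. Adgrl4, an adhesion receptor of endothelium, was higher at 1.21 ± 0.27 (SE; edgeR quasi-likelihood, adjusted p = 0.00351) in wild type. Gpr108 was not called at −0.47 ± 0.24 (SE; edgeR quasi-likelihood, adjusted p = 0.121), was called without E17.5 replicate 1 (−0.73), and was lower in humanized tissue at −0.98 ± 0.13 (adjusted p = 2.91e-05).

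In the pairs of Anxa5, Rusf1 and Ccdc38, which share a peak with a neighbour, RNA could be tested for only 1 gene of each. Anxa5 was at 50.1, 66.3, 40.1 and 47.4 CPM in the 4 wild type E11.5 samples and 43.5, 25.7, 28 and 27.9 CPM in those of E17.5, with log2 fold changes of −0.71 ± 0.22 (SE; edgeR quasi-likelihood, adjusted p = 0.0201) in wild type and −1.28 ± 0.13 (adjusted p = 2.13e-06) in humanized tissue, while 1810062G17Rik, with the same peak, had at most 0.348 CPM and was not tested. The wild type call of Anxa5 was lost without E11.5 replicate 2 or E17.5 replicate 2, 3 or 4 (−0.56, −0.61, −0.65 and −0.66). Rusf1 was not called in wild type, −0.02 ± 0.20 (SE; edgeR quasi-likelihood, adjusted p = 0.943), and was lower in humanized tissue, −0.63 ± 0.18 (adjusted p = 0.00762). Ccdc38 was not called in wild type, −0.81 ± 0.41 (SE; edgeR quasi-likelihood, adjusted p = 0.119), or humanized tissue, 0.47 ± 0.34 (adjusted p = 0.227), though it was in humanized tissue without E11.5 replicate 4 (0.9), and its partner Amdhd1 had too little RNA to test. Outside the rule by a narrow margin, Tcp11l2 changed by 1.16 ± 0.21 (SE; edgeR quasi-likelihood, adjusted p = 0.000885) in wild type tissue and Slc12a8 was not called, at −0.07 ± 0.42 (adjusted p = 0.904).

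None of the Polycomb genes themselves was a member, and their RNA went both ways between stages. Of 12 PRC2 genes 6 were lower and 2 higher in wild type tissue (7 and 4 in humanized), of 21 PRC1 genes 5 and 3 (8 and 5), and of 2 H3K27 demethylases 1 and 0 (1 and 1). Over all genes tested 26.7% were lower and 29% higher in wild type tissue, and 39.5% and 38.2% in humanized tissue. These small lists were not tested against those shares. Ezh2, the main methyltransferase of dividing cells, was at 257, 215, 316 and 266 CPM in the 4 wild type E11.5 samples and 34.3, 58.5, 58.3 and 60.8 CPM in those of E17.5, a log2 fold change of −2.33 ± 0.23 (SE; edgeR quasi-likelihood, adjusted p = 1.38e-05). Eed, which PRC2 needs, changed by −1.48 ± 0.25 (adjusted p = 0.000593), the histone chaperone Rbbp4 by −1.48 ± 0.20 (adjusted p = 0.000129) and Epop, an accessory subunit, by −3.13 ± 0.43 (adjusted p = 0.000125), all by edgeR quasi-likelihood. Cbx2 and Phc2 of PRC1 changed by −3.21 ± 0.27 (adjusted p = 4.83e-06) and −1.80 ± 0.33 (adjusted p = 0.000942). Ezh1, known from non-dividing cells, was higher at 1.26 ± 0.18 (SE; edgeR quasi-likelihood, adjusted p = 0.000149) and was picked after its values were seen. Summed over the list, PRC2 genes were at 1772 to 1927 CPM at E11.5 and 871 to 979 CPM at E17.5, PRC1 genes at 1635 to 1674 and 1292 to 1419 CPM and the demethylases at 199 to 210.2 and 126 to 156 CPM. Rbbp4, Pcgf3 and Kdm6b were the most abundant of the 3 lists, no gene of them was at 0 in any sample, and their part in the members' H3K27me3 was not tested.

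The 250 bases upstream of 4 members are shown because their genes carry the results above. Mybl2 was among the largest falls, and Neurod6 and Psg16 were the largest rises. Cox6b1 had the highest humanized fold enrichment by the median of the 3 lists, although humanized replicate 3 had no peak there. Each is the reference sequence of GRCm39 (mm39), written 5′ to 3′ on the strand of the gene, in lower case with CG dinucleotides in capitals. The Mybl2 sequence is chr2:162896185-162896434 on the plus strand and holds 8 CG. The Neurod6 sequence is chr6:55658327-55658576 on the minus strand with 3, the Psg16 sequence chr7:16807691-16807940 on the plus strand with 4, and the Cox6b1 sequence chr7:30325617-30325866 on the minus strand with 8. All 4 lie just before the annotated start and outside annotated UTRs of protein-coding genes. Those of Neurod6 and Psg16 also lie inside the gene records Gm3279 and Gm72959.
Mybl2: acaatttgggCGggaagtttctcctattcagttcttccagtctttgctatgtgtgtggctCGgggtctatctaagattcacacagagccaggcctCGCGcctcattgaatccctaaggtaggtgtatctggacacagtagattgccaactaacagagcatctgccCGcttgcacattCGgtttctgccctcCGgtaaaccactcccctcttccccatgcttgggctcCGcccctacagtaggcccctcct
Neurod6: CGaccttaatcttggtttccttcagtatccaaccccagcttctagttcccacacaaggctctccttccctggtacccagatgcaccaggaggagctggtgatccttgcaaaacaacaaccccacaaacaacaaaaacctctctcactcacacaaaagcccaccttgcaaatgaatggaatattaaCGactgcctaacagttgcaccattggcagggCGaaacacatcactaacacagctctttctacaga
Psg16: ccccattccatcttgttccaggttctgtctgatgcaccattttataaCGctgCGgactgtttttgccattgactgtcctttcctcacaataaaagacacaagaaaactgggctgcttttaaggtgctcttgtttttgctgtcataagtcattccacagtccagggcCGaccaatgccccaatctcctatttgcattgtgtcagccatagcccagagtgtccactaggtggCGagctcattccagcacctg
Cox6b1: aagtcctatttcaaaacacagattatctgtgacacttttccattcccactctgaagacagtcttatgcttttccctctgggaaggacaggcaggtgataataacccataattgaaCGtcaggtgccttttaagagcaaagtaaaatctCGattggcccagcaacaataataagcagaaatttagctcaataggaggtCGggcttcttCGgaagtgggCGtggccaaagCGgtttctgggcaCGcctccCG

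On either strand, GGGCGG (a GC box) was found in the Mybl2 sequence, CCAAT in those of Neurod6, Psg16 and Cox6b1, and TATAAA in that of Psg16. In the 250 bases upstream of all 447 members, GGGCGG was found in 32%, CCAAT in 34.9% and TATAAA in 11.4%. Upstream of all 21757 starts the shares were 29.9%, 36.1% and 12.5%. These letter matches are descriptions of the windows, and the shares of members were close to those of all starts.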

How the data were processed

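The authors aligned ChIP reads to mm39 with Bowtie2 2.4.2 (humanized samples to mm39 carrying the human sequence), called peaks per replicate with MACS2 2.2.7.1 and counted RNA reads per gene with STAR 2.7.9a. These versions and deepTools 3.5.1 are from the submitters' processing notes. Settings of the H3K27me3 calls are not given in the sources used here. The deposited peak lists give fold enrichment as a ratio over local background (column 7), −log10 p-values and q-values (columns 8 and 9) and an integer score (column 5), which was not used beyond a check. The deposited RNA counts are unnormalized whole reads per gene, of which the unstranded column was used. The stranded column held 96% to 96.5% of strand-assigned reads. Reads on no gene were 48.1% to 58.4% of each library, 36.3% to 44.9% unmapped included, and stayed out of library sizes.

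A gene start was the 5′ end of a protein-coding gene record of GENCODE M39 in the reference given with the data, which is not the release used for counting. Identifiers matched a count row for 21618 of 21757 starts (count table of 56923 rows). A mark was lost if present within 2 kb in every E11.5 list and no E17.5 list, gained in the reverse case, and both or neither if in all lists or none. RNA was tested with edgeR 4.0.16 (R 4.3.3, limma 3.58.1; filterByExpr, TMM, quasi-likelihood, ~stage) on 8 wild type and 8 humanized samples, with interaction on all 16, and Benjamini-Hochberg adjusted p under 0.05 over all genes tested. DESeq2 1.42.0 was the alternative tool. Scripts used Python 3.11.15, numpy 2.4.6 and pandas 2.3.3, and the tests were tried on simulated counts.

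Named genes were the 10 largest falls and 8 largest rises called the same way in both genotypes with at least 1 CPM, the 8 highest median humanized H3K27me3 folds, members in marker lists, members that lost or gained H3K27ac (the latter up to 5), threshold neighbours, up to 3 shared peaks, up to 3 members of each family of 5 or more, and up to 6 Polycomb genes. Alternatives were other thresholds, windows, overlaps, start definitions, equal list sizes, scaling, filters, strand, a replicate block and leaving out each replicate. Members and lists were chosen with earlier results of these data known. Of 76 samples, 24 inputs were not analysed here.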

Additional observations from a re-analysis of the deposited data

Results flagged for a closer look

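In 224 groups of 4 RNA samples, over 68 named genes, 20 groups had a sample whose gap to its nearest neighbour, divided by the group's range, was above the 95% critical value of Dixon's test. Chance alone gives about 1 in 20 groups. Of the 20, 15 were wild type E17.5 replicate 1. That replicate was the highest at Mybl2 (gap over range 0.83; 4.5 CPM against 1.41 to 1.94), Uhrf1 (0.831; 27.7 against 12.3 to 14.9), Ngef (0.929; 31.6 against 14.4 to 15.6), Fgfr1 (0.908; 96 against 46.7 to 51.2), Anxa5 (0.871; 43.5 against 25.7 to 28), Zbtb12 (0.846; 90.7 against 43.8 to 51) and Smo (0.904; 40.7 against 20.4 to 22.3). It was also the highest at Slc36a1 (0.876; 60.9 against 35.9 to 39), Gpr108 (0.93; 16.5 against 9.1 to 9.62), Cbx2 (0.927; 24.7 against 12.6 to 13.5), Epop (0.867; 4.55 against 1.14 to 1.59) and Phc2 (0.934; 109 against 39.9 to 44.4). It was the lowest at Pkhd1l1 (0.847; 0.418 CPM against 1.03 to 1.14), Ezh2 (0.907; 34.3 against 58.3 to 60.8) and Eed (0.878; 12.8 against 26.3 to 28.2).

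The other 5 fell in other groups. In humanized E11.5 samples, replicate 3 was high at Fignl2 (0.882; 113 CPM against 62.8 to 68.7) and replicate 4 at Ccdc38 (0.936; 2.25 against 0.897 to 0.983). In humanized E17.5 samples, replicate 2 was high at Pde1a (0.855; 20.8 against 15.5 to 16.2). In wild type E11.5 samples, replicate 3 was low at Tcp11l2 (0.834; 5.97 against 8.51 to 9.02) and replicate 2 was high at Slc4a2 (0.92; 46 against 30.9 to 32.1).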

How the results depend on the processing

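The number of members was 113 with a column 9 minimum of 5, 179 when every transcript start had to meet the rule, 713 with no minimum and 689 with a 5 kb window, and 457 to 708 when each replicate was left out. Windows of 1 kb shared 298 members with the 447, 66.7% of these and 81.2% of their own 367, and a rule that a peak cover 1000 bp shared 238, 53.2% and 53% of 449. The humanized rule was met by 49 members at a column 9 of 5 and by 198 to 243 on leaving out replicates. RNA counts with members of column 9 of 5 or more were 6 higher and 59 lower in wild type, 7 and 68 in humanized tissue, and with genes that met the rule at every transcript start, chosen after seeing the data, 18 and 58, and 21 and 69. The cause was not tested. The 2 other sets chosen after seeing the data stayed within 1.5 times: equal list sizes gave 67 higher and 167 lower in wild type and 83 and 193 in humanized tissue, and peaks apart from E11.5 peaks 48 and 145, and 59 and 167. Leaving out each replicate gave 51 to 69 higher and 135 to 188 lower in wild type and 65 to 75 and 178 to 188 in humanized tissue, 7 to 12 members with H3K27ac lost and 2 to 4 with H3K4me3 lost; the cause was not tested. With a replicate block, wild type gave 49 higher and 148 lower, humanized 74 and 183, and the interaction 0. The replicate numbers do not pair the samples: deviations of same-numbered samples correlated at 0.0297, −0.602, 0.45 and 0.0961 in wild type and 0.413, −0.277, 0.027 and 0.122 in humanized tissue, and 1 of 4 was best matched by its own number in each. Of all alternative values, 108 counts lay within 1.5 times and 16 did not. For single genes 1675 kept direction and side of the threshold, 31 lost and 14 gained the call, and no call reversed. A further 14 uncalled values were counted as moved. Such a move could be a change of sign within the SE, as for Atp5me in wild type tissue. It was at −0.11 ± 0.21 (SE), and at 0.07 without E17.5 replicate 2. Other scalings moved the median of all genes by at most 0.08 on the log2 scale. The 112 untested members had too few reads or no row in the count table.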
